A study of Arabidopsis thaliana with 18 samples.

Results

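The tau class is the largest group of glutathione transferases in plants. These enzymes join the tripeptide glutathione to reactive or toxic molecules, such as herbicides and products of lipid oxidation, which marks them for transport into the vacuole. Many tau genes lie side by side in tandem clusters, and in Arabidopsis several are known to be induced by herbicides, oxidative stress and oxylipins. Norflurazon, the treatment used here, is itself a herbicide: it blocks carotenoid synthesis, so that light damages the plastids.

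The genes described were chosen by name: they are the probe sets that the array annotation assigns to 1 gene whose symbol begins with GSTU or ATGSTU. There were 11 of them, each for a different gene, among 13356 genes with a probe set of their own and 22746 probe sets tested. These are 11 of the 28 tau loci of Arabidopsis in a list written by hand. The other 17 loci had no probe set assigned to them alone and were not analysed here. These include all 7 tau loci of chromosome 2. Of the 11 genes, 10 lie on chromosome 1 and GSTU27 lies on chromosome 3. GSTU20, GSTU21, GSTU22 and GSTU23 are consecutive members of 1 cluster, GSTU25 and GSTU26 are direct neighbours, and GSTU18 is next to the tau gene ERD9 (GSTU17). Neighbouring tau genes are similar in sequence, so that transcripts of a relative not analysed here may add to a signal, and this was not tested.

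RNA came from 5-day-old Arabidopsis thaliana seedlings grown in continuous light on medium with 1% sucrose. The 6 groups, of 3 arrays each, were gun1-9 with 5 uM norflurazon, gun1-9 untreated, gun5 with 5 uM norflurazon, gun5 untreated, the wild type Col-0 with 5 uM norflurazon, and Col-0 untreated. The gun (genomes uncoupled) mutants keep nuclear photosynthesis genes active despite damaged plastids. GUN1 is a plastid-located pentatricopeptide repeat protein, and GUN5 the H subunit of magnesium chelatase in chlorophyll synthesis. The labels do not say what the alleles change, and the transcripts of GUN1 and GUN5 were not analysed here. In RNA of seedlings, fewer cells of a type and less RNA per cell cannot be told apart.

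Levels are probe-set intensities, which can be compared between groups for 1 gene but not between genes. The median intensity of an array lay between 14.7 and 16.3. Precision is limited by the number of arrays. Changes are differences of log2(intensity + 1), with their standard error (SE) from a limma model of all 18 arrays, and a gene was called where its p, adjusted over all 22746 probe sets by the Benjamini-Hochberg method, was under 0.05. The dim level, the mean first quartile of the arrays, was an intensity of 3.79. Markers of the material were measured only in part. Of the 4 measured green-tissue genes, which encode photosynthesis proteins, 2 were called lower on norflurazon in gun1-9, 3 in gun5 and 4 in Col-0, with median log2 changes of -0.39, -0.81 and -2.71. LHCB4.2, an antenna protein of photosystem II, fell furthest of them (-0.83 in gun1-9, -1.52 in gun5 and -4.14 in Col-0). RCA, Rubisco activase, was not called in gun1-9 (-0.18) or gun5 (0.05) and fell in Col-0 (-1.89), and LHCB4.1 was not called in gun1-9 (-0.16). Log2 changes on norflurazon were, in the same order of genotypes, for the root-hair gene EXP7 (expansin EXPA7) 1.36, 0.65 and 1.02, and for the glyoxylate cycle gene ICL (isocitrate lyase, a mark of seed reserves in use) 4.45, 4.87 and 3.52, all called except that of EXP7 in gun5. The level of ICL also differed between genotypes: it was lower than in Col-0 by log2 differences of -2.87 in treated gun1-9, -3.36 in treated gun5, -3.80 in untreated gun1-9 and -4.71 in untreated gun5, all called. Of the lists behind them 4 of 5 green-tissue, 1 of 6 root and 1 of 6 seed genes were measured. Their part in the results on tau genes was not tested.

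The 11 tau genes did not all move in the same direction on norflurazon. In gun1-9, 5 of the 11 were called, 2 higher and 3 lower, in a comparison where 36.3% of all probe sets were called (20.5% higher and 15.7% lower). In gun5, 4 of the 11 were called, 2 higher and 2 lower (28.9% of all probe sets, 15.7% higher and 13.2% lower), and in Col-0 6 of the 11, 2 higher and 4 lower (39.3% of all probe sets, 24.2% higher and 15.1% lower). The median log2 change of the 11 genes was 0.01 in gun1-9, -0.13 in gun5 and -0.06 in Col-0, and that of all probe sets 0.02, 0.04 and 0.03. The individual genes differed from each other: GSTU20 and GSTU18 fell in the 3 genotypes, GSTU25 rose in the 3 genotypes, and GSTU16 rose in the mutants but fell in Col-0. The rise of GSTU25 was less certain than these other changes: in gun5 its call was lost in 15 of 25 alternative settings. GSTU26, GSTU27 and GSTU28 were each called in 1 genotype. GSTU15, GSTU21, GSTU22 and GSTU23 were called in none.

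GSTU20 (AT1G78370) had the largest change of the 11 genes in gun1-9 and gun5, while in Col-0 the change of GSTU18 was larger. The GSTU20 protein is also known as FIP1, a partner of the jasmonate-conjugating enzyme FIN219 (JAR1) in far-red light signalling, and the gene is known to be co-expressed with those of aliphatic glucosinolate synthesis. In gun1-9, GSTU20 had intensities of 11.6, 17.3 and 15.4 in treated seedlings and 1175, 962 and 1515 in untreated seedlings. In gun5, the values were 23.0, 42.8 and 12.9 in treated and 1273, 1158 and 1291 in untreated seedlings. In Col-0, they were 98.8, 198 and 121 in treated and 870.0, 1436 and 1077 in untreated seedlings. Treated and untreated arrays were far apart in each genotype, and every treated array of either mutant lay below every treated array of Col-0.

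The treated mean of GSTU20 was 1.21% of the untreated mean in gun1-9, 2.12% in gun5 and 12.3% in Col-0. The log2 change was -6.26 ± 0.33 SE in gun1-9 (limma, adjusted p = 1.98e-10), -5.66 ± 0.33 SE in gun5 (adjusted p = 1.78e-09) and -3.04 ± 0.33 SE in Col-0 (adjusted p = 9.46e-07). Its fall was thus deeper in the mutants. Set against Col-0, the response of gun1-9 differed by -3.22 ± 0.46 SE (adjusted p = 7.76e-05). For gun5 this difference was -2.62 ± 0.46 SE (adjusted p = 0.000556). Among the treated seedlings, GSTU20 was 8.61-fold lower in gun1-9 and 5.48-fold lower in gun5 than in Col-0 on the log2(intensity + 1) scale. The size depended on the constant: with log2(intensity + 16), the log2 change of GSTU20 was -5.31 in gun1-9 and -4.95 in gun5, the response of gun1-9 differed from that of Col-0 by -2.40, and treated gun1-9 differed from treated Col-0 by -2.29 instead of -3.11, all still called. Between gun1-9 and gun5 the difference of response was -0.60, with a 95% interval of -1.58 to 0.38 (adjusted p = 0.566). The treated gun5 arrays spread widely, with a standard deviation (SD) of 15.2 around a mean of 26.3. Without replicate 3 of treated gun5, the lowest of them, GSTU20 was called lower in treated gun1-9 than in treated gun5 (log2 difference -1.06, adjusted p = 0.0312), against -0.65 and adjusted p = 0.238 with all arrays. Untreated seedlings of the 3 genotypes overlapped, at 1217 ± 279 in gun1-9, 1240 ± 72.2 in gun5 and 1128 ± 286 in Col-0 (SD, n = 3 each).

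**Figure D1:**
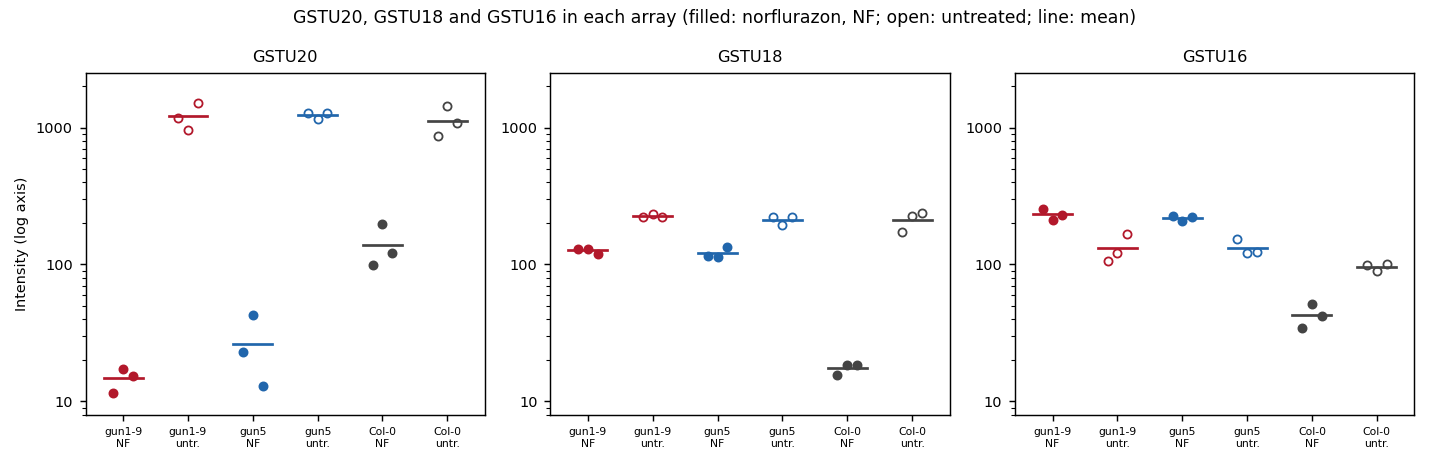
Intensity (log axis) of GSTU20, GSTU18 and GSTU16 in each of the 18 arrays, with filled points for norflurazon (NF), open points for untreated seedlings and a line at each group's mean of 3 arrays. In treated seedlings, GSTU20 was lower in both mutants than in Col-0, whereas GSTU18 and GSTU16 were higher in both mutants than in Col-0.

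GSTU18 (AT1G10360) fell strongly in Col-0 and mildly in both mutants. In gun1-9, its intensities were 130.1, 131 and 119.7 in treated seedlings and 223, 233 and 223 in untreated seedlings. In gun5, they were 115, 114 and 134 in treated and 223, 194 and 221 in untreated seedlings. In Col-0, they were 15.5, 18.5 and 18.5 in treated and 172, 226 and 238 in untreated seedlings. Treated arrays lay below untreated arrays in each genotype without overlap, and those of Col-0 were far below those of the mutants. The treated mean was 56.1% of the untreated mean in gun1-9, 56.9% in gun5 and 8.25% in Col-0.

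The log2 change of GSTU18 was -0.83 ± 0.12 SE in gun1-9 (adjusted p = 2.4e-05), -0.81 ± 0.12 SE in gun5 (adjusted p = 4.86e-05) and -3.52 ± 0.12 SE in Col-0 (limma, adjusted p = 2.2e-13). Relative to Col-0, the response of gun1-9 differed by 2.69 ± 0.16 SE (adjusted p = 3.71e-09). That of gun5 differed by 2.71 ± 0.16 SE (adjusted p = 4.53e-09). GSTU18 was 6.93-fold higher in treated gun1-9 and 6.60-fold higher in treated gun5 than in treated Col-0 (log2 differences 2.79 and 2.72). With log2(intensity + 16) these log2 differences of GSTU18 were 2.09 and 2.03, its change in Col-0 was -2.76, and its differences of response were 1.99 in gun1-9 and 2.02 in gun5, all still called. Between the mutants the responses differed by -0.02, with a 95% interval of -0.37 to 0.33. Without treatment, GSTU18 was at 226 ± 5.89 in gun1-9, 213 ± 16.6 in gun5 and 212 ± 35.3 in Col-0, and these groups overlapped.

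GSTU16 (AT1G59700) moved in opposite directions in the mutants and in the wild type. In gun1-9, its intensities were 255, 212 and 231 in treated seedlings and 107, 120.4 and 166 in untreated seedlings. In gun5, they were 228, 207 and 223 in treated and 153, 121 and 124 in untreated seedlings. In Col-0, they were 34.4, 51.3 and 42.3 in treated and 99.4, 89.2 and 100.3 in untreated seedlings. Treated arrays were all higher than untreated ones in both mutants and all lower in Col-0.

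GSTU16 rose by 0.85 ± 0.16 SE on the log2 scale in gun1-9 (adjusted p = 0.00035) and by 0.73 ± 0.16 SE in gun5 (adjusted p = 0.00169), and had a log2 change of -1.17 ± 0.16 SE in Col-0 (limma, adjusted p = 1.11e-05). Compared with Col-0, the response of gun1-9 differed by 2.02 ± 0.22 SE (adjusted p = 3.71e-06). In gun5 the difference from Col-0 was 1.90 ± 0.22 SE (adjusted p = 6.41e-06). GSTU16 was 5.41-fold higher in treated gun1-9 and 5.11-fold higher in treated gun5 than in treated Col-0 on the log2(intensity + 1) scale (log2 differences 2.44 and 2.35). Over the 25 alternative settings these log2 differences went down to 2.09 and 2.01. The differences of response went down to 1.72 in gun1-9 and 1.62 in gun5, all still called. The 2 mutants differed in response by 0.11, with a 95% interval of -0.35 to 0.58. Untreated arrays of both mutants lay above those of Col-0, with means of 131 ± 30.9 for gun1-9, 132 ± 17.6 for gun5 and 96.3 ± 6.17 for Col-0 (SD, n = 3 each). Those untreated differences, 0.42 in gun1-9 and 0.45 in gun5 on the log2 scale, were not called (adjusted p = 0.332 and adjusted p = 0.201).

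**Figure D2:**
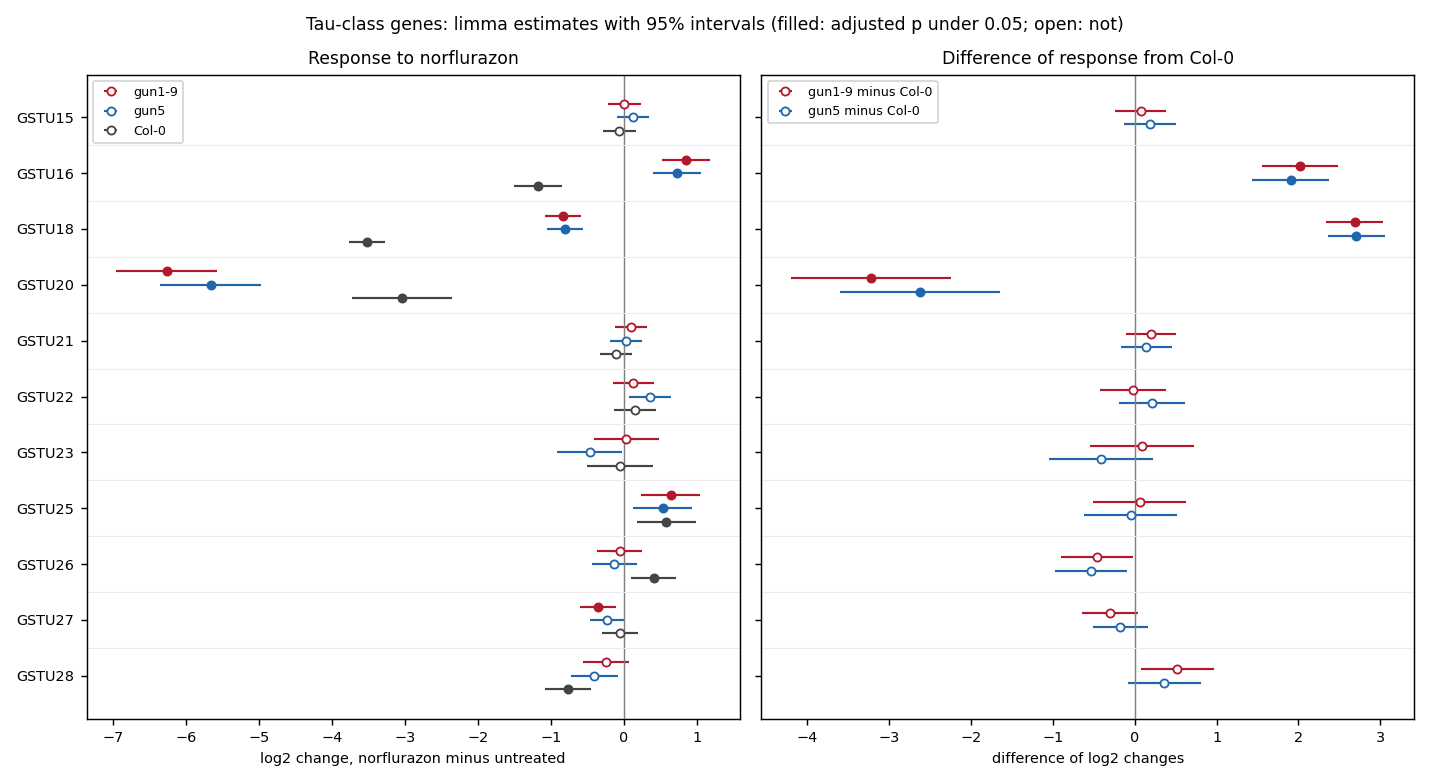
Left, log2 change on norflurazon of the 11 tau genes in gun1-9, gun5 and Col-0; right, difference of that change from Col-0 in each mutant. Points are limma estimates with 95% intervals, filled where adjusted p was under 0.05; on the right, GSTU16 and GSTU18 lie above 0 and GSTU20 below 0 in both mutants, and the other 8 genes have open points.

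For 3 of the 11 genes, 2 higher and 1 lower, the response of gun1-9 passed the test of its difference from Col-0 (15.3% of all probe sets, 8.07% higher and 7.21% lower). For gun5 these were also 3 of the 11, 2 higher and 1 lower (16.8% of all probe sets, 8.73% higher and 8.11% lower). GSTU16 and GSTU18 were the higher ones and GSTU20 the lower one for each mutant. Both comparisons use the same Col-0 arrays, so that the 2 sets of values are not independent. Between gun1-9 and gun5 the difference of response was called for 0 of the 11 genes (5.46% of all probe sets), and no tau gene had an unadjusted p under 0.05 in that limma comparison. The order of the groups set the 3 genes apart. From high to low mean, GSTU20 ran untreated gun5, untreated gun1-9, untreated Col-0, treated Col-0, treated gun5, treated gun1-9, with overlap among the untreated groups and between the treated mutants. GSTU18 ran untreated gun1-9, untreated gun5, untreated Col-0, treated gun1-9, treated gun5, treated Col-0, again with overlap among the untreated groups and between the treated mutants. For GSTU16 the order was treated gun1-9, treated gun5, untreated gun5, untreated gun1-9, untreated Col-0, treated Col-0, with overlap between the treated mutants and between the untreated mutants.

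GSTU25 (AT1G17180), which in Arabidopsis encodes an enzyme known to conjugate the explosive TNT to glutathione, rose in the 3 genotypes. In gun1-9, its intensities were 313, 298 and 264 in treated and 148, 217 and 201 in untreated seedlings. In gun5, they were 239.95, 167 and 189 in treated and 184, 113 and 121 in untreated seedlings. In Col-0, they were 414, 284 and 344 in treated and 219, 217 and 253 in untreated seedlings. Treated and untreated arrays overlapped in gun5 and did not in gun1-9 and Col-0. The log2 change was 0.64 ± 0.19 SE in gun1-9 (limma, adjusted p = 0.0141), 0.53 ± 0.19 SE in gun5 (adjusted p = 0.0476) and 0.58 ± 0.19 SE in Col-0 (adjusted p = 0.0228). The call of GSTU25 in gun5 was lost in 15 of 25 alternative settings, with adjusted p between 0.00678 and 0.198 over all 25. It was lost in 2 of 25 settings in gun1-9 and in 4 of 25 in Col-0. Against Col-0, its response differed by 0.06, with a 95% interval of -0.51 to 0.63, in gun1-9, and -0.05, with an interval of -0.62 to 0.52, in gun5.

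GSTU26 (AT1G17190), the neighbour of GSTU25, was called only in Col-0. There its intensities were 249, 234 and 198 in treated and 193, 143 and 178 in untreated seedlings, without overlap (log2 change 0.41 ± 0.15 SE, limma, adjusted p = 0.0359). The treated and untreated means were 203 ± 18.2 and 212 ± 29.8 in gun1-9 and 155 ± 24.1 and 170.0 ± 19.8 in gun5 (SD, n = 3 each), and these groups overlapped. The log2 changes in gun1-9 and gun5 were -0.06 (adjusted p = 0.818) and -0.13 (adjusted p = 0.569). Neither mutant differed from Col-0 in this response by the test (-0.46, adjusted p = 0.162, in gun1-9, and -0.54, adjusted p = 0.09, in gun5). The rise of GSTU26 in Col-0 was not called in 6 of 25 alternatives, among them centring each array on its median (0.32, adjusted p = 0.0833).

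GSTU28 (AT1G53680) fell in Col-0, where its intensities were 12.1, 11.6 and 10.5 in treated and 20.0, 16.8 and 23.9 in untreated seedlings. All treated arrays of Col-0 lay below the untreated ones (log2 change -0.77 ± 0.15 SE, limma, adjusted p = 0.000555). The size of this fall depended on the settings: over the 25 alternatives it shrank to -0.40 at the weakest, and it was called in each. GSTU28 had low signals, between 9.56 and 23.9 over the 18 arrays. In gun1-9, the means were 11.8 ± 2.20 in treated and 14.1 ± 1.91 in untreated seedlings (log2 change -0.25, adjusted p = 0.233), and in gun5 10.6 ± 0.728 and 14.5 ± 2.57 (log2 change -0.41, adjusted p = 0.0531; SD, n = 3 each). In gun5, GSTU28 was called lower in 7 of 25 alternative settings, with adjusted p down to 0.0215. Differences from the Col-0 response, 0.52 in gun1-9 (adjusted p = 0.12) and 0.36 in gun5 (adjusted p = 0.293), were not called. The treated groups of GSTU28 overlapped in the 3 genotypes.

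GSTU27 (AT3G43800), the gene on chromosome 3, was called in gun1-9 only. Its intensities there were 275, 279 and 266 in treated and 376, 387 and 294 in untreated seedlings, without overlap (log2 change -0.36 ± 0.11 SE, limma, adjusted p = 0.0205). This call of GSTU27 was lost in 4 of 25 alternatives. The means were 320.5 ± 40.7 in treated and 374 ± 19.1 in untreated gun5 and 374 ± 18.9 in treated and 389 ± 38.4 in untreated Col-0. The log2 changes in gun5 and Col-0 were -0.23 (adjusted p = 0.151) and -0.05 (adjusted p = 0.753). Neither mutant differed from Col-0 in the response of GSTU27 by the test (-0.30, adjusted p = 0.258, in gun1-9, and -0.18, adjusted p = 0.532, in gun5). Compared by level on norflurazon, GSTU27 was lower in gun1-9 than in Col-0 (log2 difference -0.45, adjusted p = 0.00754).

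GSTU22 (AT1G78340), of the same cluster as GSTU20, was not called in any norflurazon response, but its level differed by genotype. In gun5, its intensities were 148, 112 and 149 in treated and 110.1, 106 and 101 in untreated seedlings. In Col-0, they were 274, 205 and 194 in treated and 198, 183 and 221 in untreated seedlings. Both gun5 groups lay wholly below both Col-0 groups. The log2 difference between untreated gun5 and untreated Col-0 was -0.91 ± 0.13 SE (limma, adjusted p = 0.00187), and between the treated groups -0.71 ± 0.13 SE (adjusted p = 0.000685). GSTU22 was at 182 ± 17.3 in treated and 166 ± 11.1 in untreated gun1-9 (SD, n = 3 each), and its differences from Col-0 there were -0.29 on norflurazon and -0.27 without it (adjusted p = 0.153 and adjusted p = 0.52). Treated gun1-9 was higher than treated gun5 by 0.42 ± 0.13 SE (adjusted p = 0.0492), a call lost in 17 of 25 alternatives. The log2 changes of GSTU22 on norflurazon were 0.13 in gun1-9, 0.35 in gun5 and 0.15 in Col-0 (adjusted p = 0.516, 0.0596 and 0.435).

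GSTU23, GSTU21 and GSTU15 had low signals. GSTU23 (AT1G78320) lay between 7.01 and 16.8 over the 18 arrays, with log2 changes of 0.03 in gun1-9, -0.47 in gun5 and -0.06 in Col-0, none of them called. GSTU21 (AT1G78360), which lies beside GSTU20, was at or under the dim level in 17 of 18 arrays, and GSTU15 (AT1G59670) in 18 of 18. Their log2 changes were between -0.11 and 0.12 and were not called. A transcript that is absent and one that is too scarce for these probe sets cannot be told apart, so that no response of GSTU21 or GSTU15 was measurable here.

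**Figure D3:**
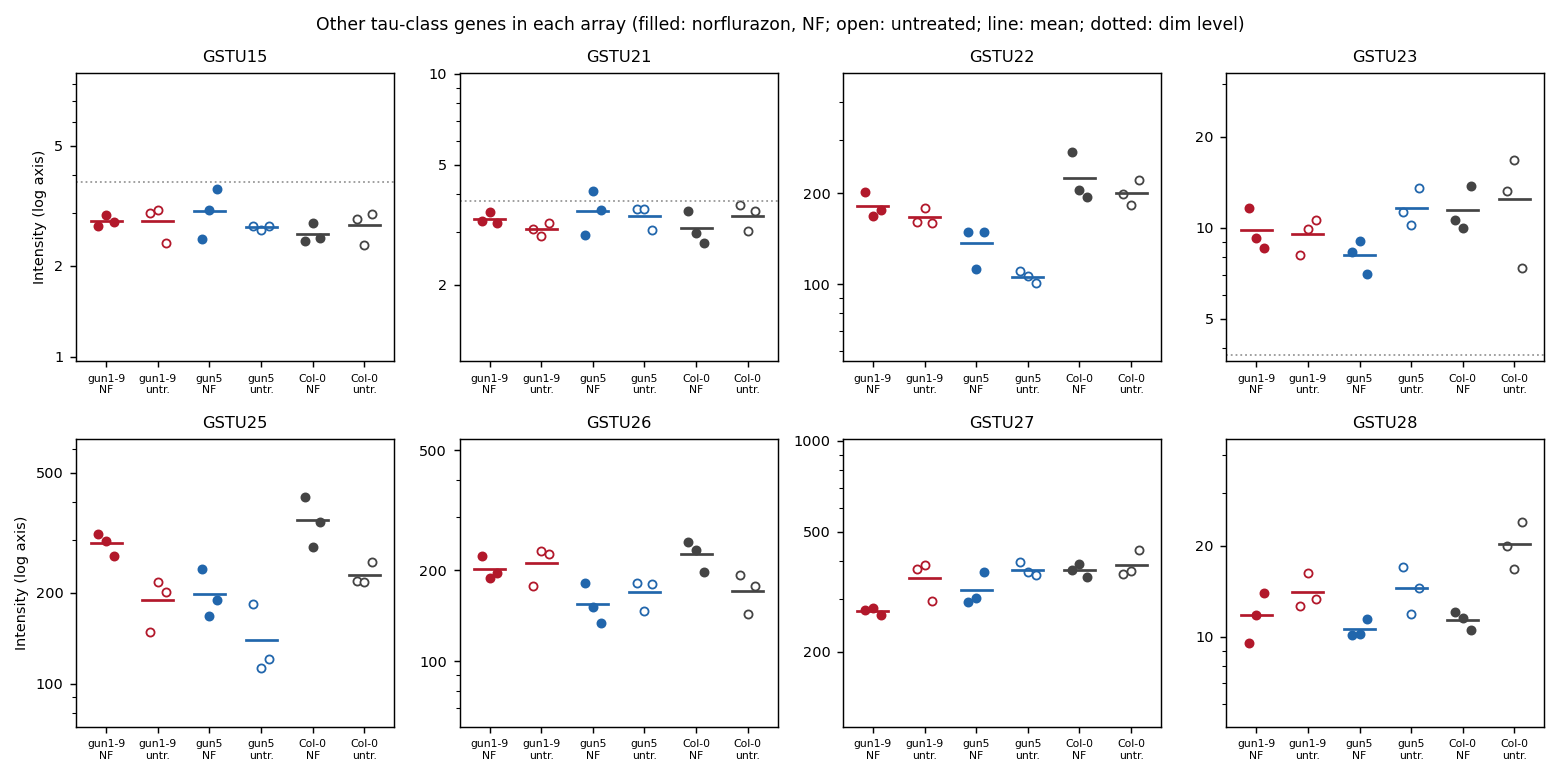
Intensity (log axis, the same 9-fold span in each panel) of the other 8 tau genes in each of the 18 arrays, with filled points for norflurazon (NF), open points for untreated seedlings, a line at each group's mean and a dotted line at the dim level of 3.79. GSTU25 had higher means with norflurazon, with overlap of treated and untreated arrays in gun5, GSTU22 was lowest in gun5, and GSTU15 and GSTU21 lay at or near the dim level.

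By level on norflurazon, 4 of the 11 genes were called between gun1-9 and Col-0, GSTU16 and GSTU18 higher and GSTU20 and GSTU27 lower (22.6% of all probe sets, 10.3% higher and 12.3% lower). Between gun5 and Col-0, 6 of the 11 were called, the same 2 higher and GSTU20, GSTU22, GSTU25 and GSTU26 lower (27.5% of all probe sets, 10.9% higher and 16.6% lower). Treated gun5 had 0.57 times the GSTU25 signal of treated Col-0 (log2 difference -0.80 ± 0.19 SE, limma, adjusted p = 0.00436) and 0.68 times the GSTU26 signal (-0.55 ± 0.15 SE, adjusted p = 0.00945). Without treatment, 0 of the 11 genes were called between gun1-9 and Col-0 (0.396% of all probe sets), with GSTU16 and GSTU28 at an unadjusted p under 0.05. Between untreated gun5 and Col-0, 1 of 11 was called, GSTU22 (1.67% of all probe sets). For untreated GSTU25, the difference between gun5 and Col-0 was -0.75 with adjusted p = 0.062. Between treated gun1-9 and treated gun5, 1 of 11 was called, again GSTU22 (13.0% of all probe sets).

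Across the 18 arrays, the 7 genes called in a response followed no common pattern. Pearson's r of log2 level between pairs of them ran from -0.66, for GSTU25 and GSTU18, to 0.66, for GSTU27 and GSTU20. These r values are descriptions: the arrays fall into treated and untreated groups, which they share. Among 13502 other probe sets with 1 gene, the levels most like GSTU20 were those of the thaumatin-like gene ATLP-1 (r = 0.975), AT3G61820 (0.973), AT5G07030 (0.972), the defensin-like gene LCR68 (0.971) and AT3G53190 (0.969). After group means were removed, r with GSTU20 lay between 0.359, for LCR68, and 0.760, for AT5G07030. GSTU18 was most like AT5G27290 (r = 0.995) and PSAN, the nuclear gene of photosystem I subunit N (0.994). GSTU16 was most like AT4G17840 (r = 0.960) and AT5G42760 (0.942), but within groups the r was -0.252 and -0.165. For GSTU25 the genes were AT2G41800 (0.930) and AT3G24240 (0.913), for GSTU26 AT5G57330 (0.849) and PPR336 (0.840), for GSTU27 AT3G57785 (0.923) and CSLA03 (0.893), and for GSTU28 AT5G59490 (0.898) and AT5G66390 (0.898).

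Genes of the surrounding pathways were measured in part, from lists written by hand. Of 25 genes of other glutathione transferase classes 3 were measured. The lambda-class gene GSTL3 fell in the 3 genotypes (log2 change -0.55 in gun1-9, -0.60 in gun5 and -1.27 in Col-0). Its response differed from that of Col-0 by 0.72 in gun1-9 (limma, adjusted p = 0.000474) and 0.67 in gun5 (adjusted p = 0.00079). The phi-class gene GSTF4 fell in gun1-9 (-1.27) and gun5 (-1.08), with -0.62 in Col-0 not called. Signals of GSTF4 were low, with treated means of 6.66 in gun1-9, 7.64 in gun5 and 10.1 in Col-0. The difference of response of GSTF4 from Col-0 did not pass in gun1-9 (-0.65, adjusted p = 0.272) or gun5 (-0.45, adjusted p = 0.454). GSTF13, also of the phi class, was called in no response. Its response differed from that of Col-0 in gun1-9 (-0.73, limma, adjusted p = 0.0384) and did not pass in gun5 (-0.67, adjusted p = 0.0533). By level on norflurazon, GSTF13 was lower in gun5 than in Col-0 (-0.66, adjusted p = 0.00528). These signals were low, with means from 4.99 in treated gun5 to 8.39 in treated Col-0. Of 24 genes of glutathione metabolism and conjugate transport 2 were measured, the glutathione reductases, which restore reduced glutathione. GR1, of the cytosol and peroxisome, rose by 0.53 in gun1-9, 0.34 in gun5 and 0.43 in Col-0. GR2, of plastids and mitochondria, rose by 0.36 in gun5 and had a log2 change of -0.94 in Col-0, both called, and of -0.25 in gun1-9, not called. The response of GR2 differed from that of Col-0 by 0.69 in gun1-9 (limma, adjusted p = 0.00419) and 1.29 in gun5 (adjusted p = 7.82e-06). That of GR1 did not pass in gun1-9 (0.11, adjusted p = 0.643) or gun5 (-0.09, adjusted p = 0.671).

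Of 18 genes of sulfate assimilation and cysteine synthesis, the source of the sulfur in glutathione, 3 were measured. APS3, an ATP sulfurylase, fell in the 3 genotypes (log2 change -2.19 in gun1-9, -1.71 in gun5 and -1.49 in Col-0). In Col-0, APS4 rose by 0.65 and the sulfite reductase gene SIR fell (-0.73), and neither was called in the mutants. The response of APS4 differed from that of Col-0 in gun5 (-0.49, limma, adjusted p = 0.0485) and did not pass in gun1-9 (-0.37, adjusted p = 0.156). That of SIR differed by 0.58 in gun1-9 (adjusted p = 0.00401) and 0.59 in gun5 (adjusted p = 0.00328). Of 22 genes of aliphatic glucosinolate synthesis 3 were measured. BCAT4, which starts methionine chain elongation, fell in the 3 genotypes with log2 changes of -1.32 in gun1-9, -2.24 in gun5 and -1.17 in Col-0. The response of BCAT4 differed from that of Col-0 in gun5 (-1.07, adjusted p = 0.0223) and did not pass in gun1-9 (-0.15, adjusted p = 0.834). The glucosyltransferase gene UGT74B1 fell too, with log2 changes of -0.94 in gun1-9, -1.15 in gun5 and -0.55 in Col-0. Its response differed from that of Col-0 in gun5 (-0.61, adjusted p = 0.00594) and did not pass in gun1-9 (-0.39, adjusted p = 0.0745). UGT74C1 fell in Col-0 (-1.22) and was not called in the mutants, and its response differed from that of Col-0 by 1.45 in gun1-9 (adjusted p = 8.6e-07) and 1.03 in gun5 (adjusted p = 3.77e-05).

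Of 15 genes known from xenobiotic and oxylipin responses 4 were measured. DTX3 (AT2G04050), a transporter gene of the MATE family, was called higher in the 3 genotypes. Its treated and untreated means were 456 ± 75.4 and 3.74 ± 0.235 in gun1-9, 198 ± 61.4 and 3.80 ± 1.3 in gun5, and 111 ± 11.8 and 3.25 ± 0.488 in Col-0 (SD, n = 3 each). The untreated means lay at or near the dim level of 3.79, so that the fold of these rises is not given. By level on norflurazon, DTX3 was higher than in Col-0 in gun1-9 (log2 difference 2.02, limma, adjusted p = 7.26e-07) and gun5 (0.79, adjusted p = 0.00758). UGT73B4 rose by 1.63 in gun1-9, 0.95 in gun5 and 0.88 in Col-0, and UGT73B5 was called in none. The response of UGT73B4 did not pass the test of its difference from Col-0 in gun1-9 (0.76, adjusted p = 0.107) or gun5 (0.08, adjusted p = 0.906). AER, an alkenal reductase gene, rose by 1.57 in gun1-9, had a log2 change of 0.28 in gun5, not called, and fell in Col-0 (-0.59). The response of AER differed from that of Col-0 by 2.16 in gun1-9 (limma, adjusted p = 1.84e-07) and 0.87 in gun5 (adjusted p = 0.00273). Of 8 genes of TGA factors, which are known to act on xenobiotic-induced genes, and their co-activator SCL14, 0 had a probe set assigned to them alone.

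**Figure D4:**
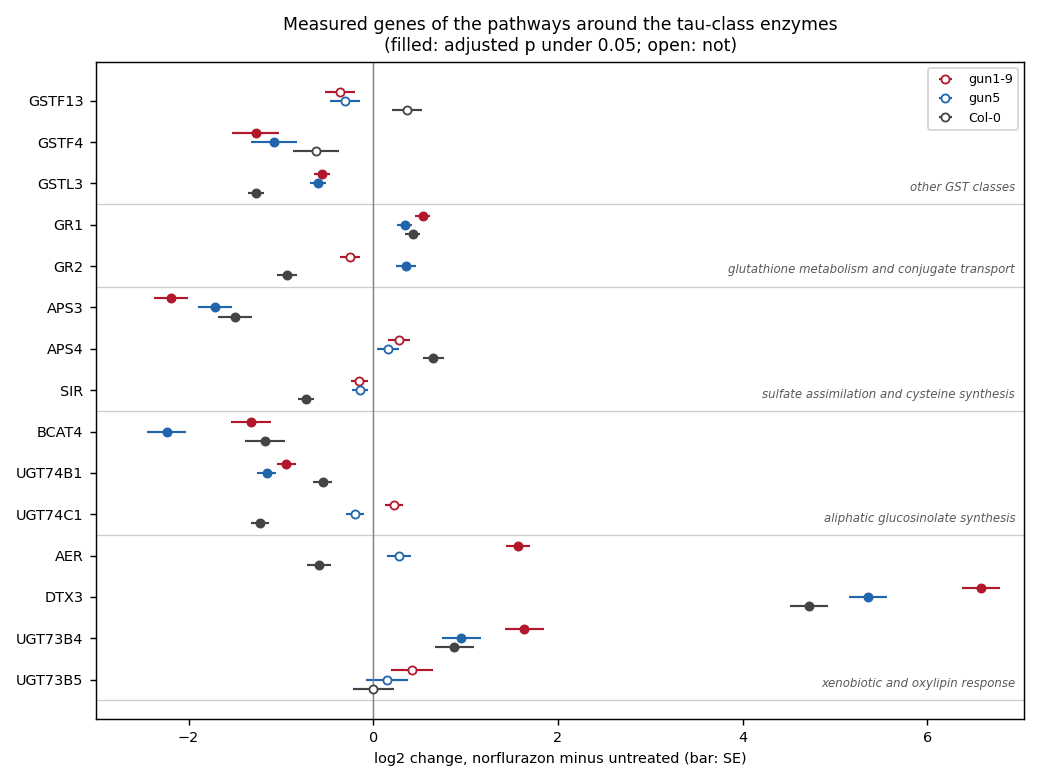
Log2 change on norflurazon of the measured genes of 5 lists around the tau-class enzymes in gun1-9, gun5 and Col-0, with bars for the SE and filled points where adjusted p was under 0.05. DTX3 was called higher in the 3 genotypes, with untreated means at or near the dim level so that its plotted size is uncertain, and APS3, BCAT4, UGT74B1 and GSTL3 lay below 0 in each.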

How the data were processed

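The values are probe-set intensity values as the authors deposited them, in a table with a column for each of the 18 arrays. Per the labels' protocols, total RNA was labelled with biotin for Affymetrix arrays. The tools GCRMA and MAS5 appear, with no stated role, per the submitters' processing notes. Values are linear and positive, with similar medians between arrays. Whether GCRMA made the values is not given in the sources used here; if so, its background step can compress low signals, and changes of dim probe sets are less certain. No genome build is named, and no coordinates are given.

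The table has 22810 rows, and its 64 control probe sets were not used. The annotation names 1 gene for 13513 of the remaining 22746 probe sets, several for 503, and does not list 8730; 13436 of the 13513 were found in the RefSeq genes of TAIR10.1, which gave loci and neighbours. A limma model (version 3.58.1, R 4.3.3) of group means was fitted to log2(intensity + 1) of the 18 arrays (lmFit, eBayes, prior degrees of freedom 4.48, 2-sided), with Benjamini-Hochberg adjustment over all probe sets in each contrast. The fit was also run on simulated data, and the outcome of that run is not given here. Matplotlib 3.10.9 drew the figures. Replicates correlated with Pearson's r of at least 0.992, and 2 arrays shared at most 0.440% identical values; the series design calls the replicates biological.

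Every tau gene is named. Of each pathway list, the called genes with the largest rise and fall are named, plus those needed to account for a small list. The likeness rule takes 5 genes for GSTU20 and 2 for each other tau gene called in a response. Members and lists were chosen with earlier results of these data known. Alternatives were a replicate block, a filter that drops the dimmest 25% of probe sets, quantile normalization, median centring, a fit restricted to the groups compared, trend and robust options of eBayes, log2(intensity + 16), and leaving out each array.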

Additional observations from a re-analysis of the deposited data

Results flagged for a closer look

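The response to norflurazon differed from that of Col-0, by the test of the difference itself, for 3 of the 11 tau genes in each mutant. Among all probe sets, 15.3% were called in this test for gun1-9 and 16.8% for gun5. For GSTU16 the difference of log2 changes was 2.02 in gun1-9 and 1.90 in gun5. For GSTU18 it was 2.69 in gun1-9 and 2.71 in gun5. For GSTU20 it was -3.22 in gun1-9 and -2.62 in gun5. The 2 mutants were set against the same Col-0 arrays. Groups of 3 arrays are too small for a test of single outlying arrays.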

How the results depend on the processing

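Of 33 called pairs of a tau gene and a comparison, 26 kept the call under all alternatives run (18 that leave out an array and 7 others), among them every call of GSTU16, GSTU18 and GSTU20. No called direction turned. Of the uncalled pairs, 10 gained a call under at least 1 alternative. The filter on dim probe sets left out GSTU15 and GSTU21. The number of tau genes called in gun1-9 on norflurazon was 5, and between 3 and 5 with an array left out; it was 3 without untreated replicate 1, where GSTU25 (0.47, adjusted p = 0.0832) and GSTU27 (-0.30, adjusted p = 0.0829) lost their calls. The call of GSTU25 in gun1-9 was also lost without treated replicate 1 (0.59, adjusted p = 0.0515), and that of GSTU27 without untreated replicate 2 (-0.28, adjusted p = 0.0968) or treated replicate 3 (-0.34, adjusted p = 0.0635). In Col-0, GSTU25 lost its call without untreated replicate 1 or 2 or treated replicate 1 or 3 (0.45 to 0.58), and GSTU26 without untreated replicate 2 or 3 or treated replicate 1 or 2 (0.28 to 0.44). Between treated gun5 and Col-0, GSTU26 lost its call without treated gun5 replicate 3 (-0.45, adjusted p = 0.0527). Between untreated gun5 and Col-0 the count of 1 became 2 with trend and robust settings, and lay between 1 and 2 with an array left out; GSTU25 passed with those settings and without untreated replicate 1 of gun5 (-0.97, adjusted p = 0.0202) or of gun1-9 (-0.75, adjusted p = 0.0453). Between treated gun1-9 and treated gun5 the count of 1 became 0 with median centring and with log2(intensity + 16), 2 with trend and robust settings, and lay between 0 and 3 with an array left out. It was 3 without treated gun5 replicate 1, where GSTU25 (0.71) and GSTU26 (0.51) passed, 2 without treated gun5 replicate 3, where GSTU20 passed, and 0 in 14 of the 25 settings, where GSTU22 lost its call with no other gained: the 2 named, and without treated gun5 replicate 2, untreated gun5 replicate 2 or 3, any treated gun1-9 replicate, untreated gun1-9 replicate 2 or 3, treated Col-0 replicate 2 or any untreated Col-0 replicate. These calls sat near the threshold; the cause of each shift was not tested.

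Same-numbered arrays shared weak deviations at most: of 45 same-numbered pairs 7 had deviations that correlated with r over 0.1 (median 0.05, highest 0.19). Even so, 14 of 18 arrays correlated best, on average, with their own number in the other groups. What the numbers stand for was not tested, and the main fit did not use them. With the replicate block the tau genes called were 5 in gun1-9, 5 in gun5 and 6 in Col-0, with GSTU22 in gun5 added (0.35, adjusted p = 0.0464). Median centring moved the share of higher calls among all probe sets in Col-0 to 49.7%, against 61.6% as deposited, and in the gun5 difference from Col-0 to 66.3%, against 51.8%. Signal over background limits GSTU15 and GSTU21. Counting all probe sets of a pathway gene changed no list count.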
